A study of Homo sapiens with 6 samples.

Results

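Imprinted genes, with the long non-coding RNA H19 at their head, were followed in RNA sequencing libraries of cells labelled A549. The 10 genes are H19, IGF2, IGF2R, CDKN1C, PEG10, MEST, GRB10, KCNQ1OT1, PHLDA2 and PLAGL1. They were taken by name. H19 was chosen by its rise in read counts from a low level in this same comparison, so its values are a description with no test. The other genes were listed to see whether they moved with it. Of the 10, 9 had a row among the 19876 genes of the table and 6 had enough counts to be tested among 13567 genes. KCNQ1OT1 was not analysed here. Cells were cultured with rhTR11B or with phosphate-buffered saline (PBS) as the negative control, 3 libraries in each group, with a wild-type genotype in both. TR11B is a short protein name for osteoprotegerin, the product of TNFRSF11B, which is released from cells and captures ligands of the tumour necrosis factor family. The labels do not spell out the prefix rh and give no dose and no duration. The libraries are called biological replicates, with no word on separate cultures. The p-values given here therefore rest on variation among the 6 libraries, and that variation may be technical.

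An imprinted gene is transcribed from the copy inherited from 1 parent, and the other copy is kept silent by DNA methylation and chromatin marks set in the germ line. H19 and IGF2 are neighbours on the short arm of chromosome 11: H19 is made from the maternal copy and IGF2 from the paternal copy. CTCF bound to an unmethylated control region beside H19 on the maternal copy keeps shared enhancers away from IGF2, and methylation of that region on the paternal copy removes CTCF and silences H19. IGF2 is a fetal growth factor that signals through IGF1R and INSR, and IGF2R carries it to lysosomes for breakdown. Imprinting can differ between tissues and can be lost in tumours, and read counts per gene do not say which parental copy a read came from.

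H19 also serves as the primary transcript of a microRNA, and MEST holds another in an intron. The mature sequences are shown because a change of the host transcript is often read as a change of its microRNA, which was not measured here. Capitals mark the seed, bases 2 to 8 from the 5′ end, and the positions are those of RefSeq on GRCh38.p14. The 4 seeds differ from each other. Both arms of miR-675 come from the minus strand of chromosome 11, at chr11:1996800-1996822 for the 5p arm and chr11:1996768-1996787 for the 3p arm, in an exon of H19. Both arms of miR-335 come from the plus strand of chromosome 7, at chr7:130496126-130496148 and chr7:130496162-130496183, in an intron of MEST.
miR-675-5p: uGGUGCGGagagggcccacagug
miR-675-3p: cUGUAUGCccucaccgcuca
miR-335-5p: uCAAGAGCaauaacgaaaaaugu
miR-335-3p: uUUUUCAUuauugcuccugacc

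Promoter windows of H19 and IGF2R are shown because both genes stood higher with rhTR11B while the windows at hand differ in CG content. The gene annotation gives 11 start positions for H19 and 7 for IGF2R. Counts per gene do not say which start was used, so the CG content printed here may not be that of the main start. The sequences are from RefSeq (GRCh38.p14), 5′ to 3′ on the strand of the gene, with each CG dinucleotide, the site of DNA methylation, in capitals. The H19 window runs from 250 bases before to 50 after the most upstream RefSeq start, at chr11:2001217-2001516 on the minus strand. The IGF2R window is the 250 bases before the start, at chr6:159968832-159969081 on the plus strand.
H19: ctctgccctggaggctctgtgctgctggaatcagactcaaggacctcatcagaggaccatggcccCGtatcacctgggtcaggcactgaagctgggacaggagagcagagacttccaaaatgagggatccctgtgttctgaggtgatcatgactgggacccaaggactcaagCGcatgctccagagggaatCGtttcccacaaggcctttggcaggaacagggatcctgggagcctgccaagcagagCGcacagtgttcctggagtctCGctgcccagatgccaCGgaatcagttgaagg
IGF2R: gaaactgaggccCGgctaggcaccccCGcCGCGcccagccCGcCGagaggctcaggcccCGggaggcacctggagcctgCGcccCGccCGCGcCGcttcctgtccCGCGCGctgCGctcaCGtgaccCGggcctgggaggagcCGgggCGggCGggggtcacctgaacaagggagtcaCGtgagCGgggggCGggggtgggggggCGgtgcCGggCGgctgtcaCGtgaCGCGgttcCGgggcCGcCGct

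The H19 window holds 6 CG dinucleotides in 300 bases, against a median of 14 over the 35114 RefSeq windows of that length. The 250 bases printed for IGF2R hold 33, and its full window of 300 bases holds 41. Of all windows, 94.2% hold 41 or fewer. CCCTC, a core of CTCF sites, was found 2 times in the H19 window on both strands together, and 71.2% of all windows hold it at least once. CACGTG, an E-box, was found 3 times in the IGF2R window, and 7.26% of all windows hold it. These matches describe letters in the windows and were not linked to binding. A window was at hand for 5 of the 10 genes.

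Library totals ran from 36315751 to 38148838 counts, and 3 counts corresponded to 0.0779 to 0.0842 CPM, the smallest level treated here as detected. CPM is a gene's share of the library's counts, scaled with TMM factors, and can be compared between libraries but not between genes of different length. The labels describe a lung adenocarcinoma line, and A549 is known to lack CDKN2A and MTAP, which are deleted together on chromosome 9. In these libraries CDKN2A had 1593 to 2310 counts and MTAP 1568 to 2013 counts, while the epithelial adhesion gene CDH1 had 0 or 1 count. Some other epithelial genes were also near 0, with 0 to 10 counts of EPCAM, 0 to 5 of KRT19 and 0 or 1 of RAB25. The keratin genes KRT7, KRT8 and KRT18, in contrast, stood between 351 and 961 CPM. These label genes were chosen after their values were seen. CLDN4, from the list of epithelial markers, was low but above these, with 13 to 46 counts. The high CDKN2A and MTAP counts and the near absence of CDH1 hold in all 6 libraries, so no result could be given without libraries that go against the label. Mitochondrially encoded genes took 6.63% to 7.71% of counts with PBS and 7.88% to 10.4% with rhTR11B, and rhTR11B replicate 3, at 10.4%, stood farthest from the other libraries on the first principal component.

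Levels were compared between genes as FPKM, which divides counts by gene length and by the library total. With PBS, PEG10 had the highest level of the 6 tested genes at 35.1 ± 1.65 FPKM (SD, n = 3). IGF2R followed at 16.0 ± 0.373 FPKM, PHLDA2 at 12.4 ± 1.08 FPKM and GRB10 at 2.84 ± 0.0782 FPKM. IGF2 stood at 0.805 ± 0.0361 FPKM and H19 at 0.509 ± 0.0662 FPKM, the lowest of the 6. No neighbours in this order overlapped between PBS libraries. With rhTR11B the upper 4 kept their order, at 31.2 FPKM for PEG10, 18.5 FPKM for IGF2R, 10.6 FPKM for PHLDA2 and 2.60 FPKM for GRB10. H19, at 1.53 ± 0.617 FPKM, and IGF2, at 1.14 ± 0.0955 FPKM, could no longer be ordered, since H19 ran from 0.975 to 2.20 FPKM and IGF2 from 1.05 to 1.24 FPKM. With PBS, the mean FPKM of H19 stood at the 14.1 percentile of tested genes and that of PEG10 at the 87.3 percentile.

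H19 (chr11:1995176-2001266, minus strand) stood higher in all 3 rhTR11B libraries, from a low level. Its counts were 43, 57 and 50 with PBS and 136, 211 and 92 with rhTR11B. The corresponding levels were 1.15, 1.48 and 1.31 CPM with PBS and 3.73, 5.66 and 2.58 CPM with rhTR11B. The groups did not overlap: the lowest rhTR11B library stood 1.74 times above the highest PBS library. Counting error alone gave 95% Poisson intervals of 1.12 to 1.92 CPM for that PBS library and 2.08 to 3.17 CPM for that rhTR11B library. H19 was chosen by its rise, so the intervals and the lack of overlap describe its values and are no test. The means were 1.31 ± 0.166 CPM and 3.99 ± 1.55 CPM (SD, n = 3 each), a log2 fold change of 1.60 (SE 0.25) or 3.03-fold.

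The size of the H19 difference varied between libraries. Relative to the PBS mean, rhTR11B replicates 1, 2 and 3 stood 2.84, 4.30 and 1.96 times higher. The highest rhTR11B library was 2.19 times the lowest, against 1.29 times among PBS libraries. Leaving out rhTR11B replicate 2 lowered the log2 fold change to 1.26, and leaving out rhTR11B replicate 3 raised it to 1.83. On the log2(FPKM + 1) scale the difference was 0.72. In bulk libraries, more RNA per cell and more cells with the RNA cannot be told apart. GENCODE 29 gives no exon of another gene of the table that overlaps an H19 exon.

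The summed level of fibroblast markers was higher in the rhTR11B libraries, as H19 was. Of 10 such markers 9 were in the table and 8 of these stayed under 1 CPM in every library. The sum was 3.77, 2.88 and 3.78 CPM in PBS replicates 1, 2 and 3 and 5.43, 6.65 and 4.38 CPM in rhTR11B replicates 1, 2 and 3. The rhTR11B libraries had the same order as for H19. The PBS libraries did not, since PBS replicate 2 was lowest for the sum and highest for H19. Most of the sum was COL1A1, a fibrillar collagen chain, with 3.07 ± 0.435 CPM against 4.73 ± 0.796 CPM (edgeR adjusted p = 0.0511), the one marker with enough counts to be tested, and it did not pass. LUM, a matrix proteoglycan gene, had counts of 6, 2 and 8 with PBS and 6, 27 and 11 with rhTR11B, and COL3A1 had 5, 4 and 6 and then 10, 10 and 4. FAP had 1 to 4 counts, PDGFRA 0 to 2, and DCN, THY1, PDGFRB and POSTN 0 or 1 in each library, and none of the 9 was at 0 in all 6. The part of these markers in the H19 values was not tested. Endothelial markers summed to 0.157 to 0.416 CPM and blood cell markers to 0.727 to 1.46 CPM over all libraries. Of 12 embryonic and trophoblast markers, 4 were in the table, and 2 of these stood at 1 CPM or more in every library. These 4 summed to 26.2, 24.4 and 24.9 CPM with PBS and to 26.0, 25.7 and 31.2 CPM with rhTR11B. The 2 that were tested did not pass.

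**Figure D1:**
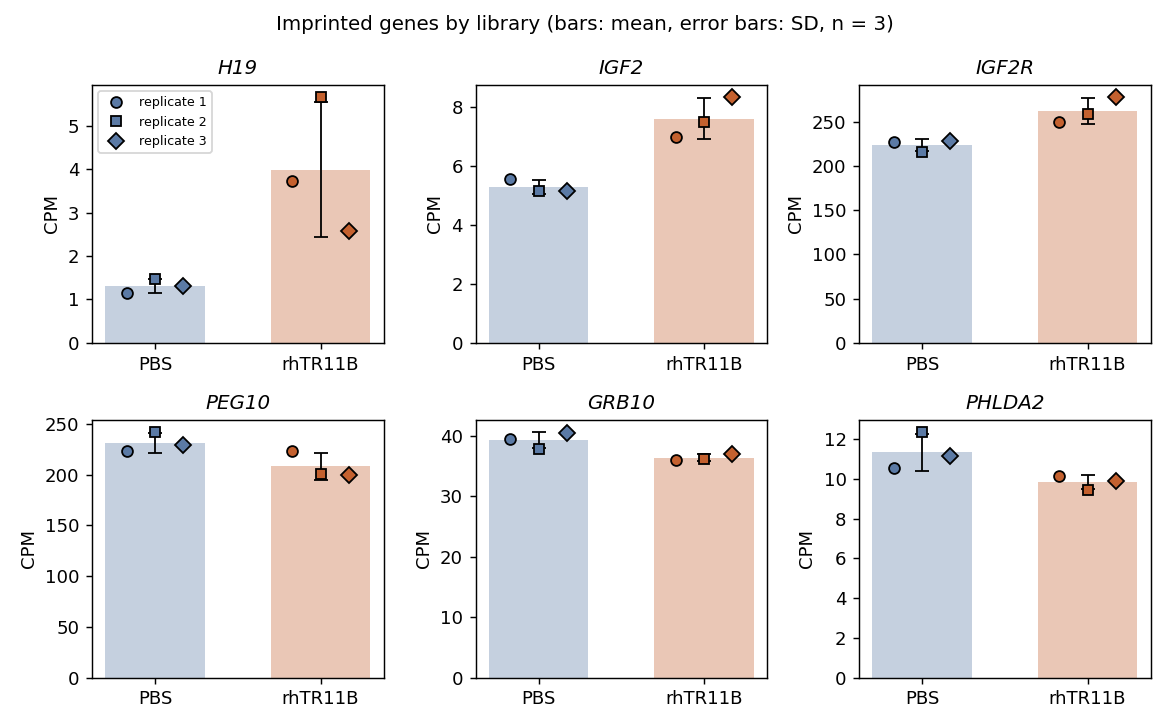
Level of each of the 6 tested imprinted genes in CPM, on a separate axis for each gene, with points for the 3 PBS and 3 rhTR11B libraries and bars for the mean and SD. H19 runs from 1.15 to 1.48 CPM with PBS and from 2.58 to 5.66 CPM with rhTR11B, and H19, IGF2 and IGF2R have every rhTR11B library above every PBS library.

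Of the other 9 imprinted genes listed, 8 were in the table and 5 were tested. IGF2 and IGF2R rose, none fell, and PEG10, GRB10 and PHLDA2 did not pass the test. Calls are edgeR quasi-likelihood tests with a Benjamini-Hochberg adjusted p under 0.05 over all tested genes, which called 3.60% of genes, 2.92% as higher and 0.678% as lower. Over all tested genes, 15.1% had every rhTR11B library above every PBS library and 29.1% had either all above or all below. An unadjusted edgeR p under 0.05 was found for 3279 of the 13567 genes. The median log2 fold change of the 5 genes was -0.11, against 0.00 over all tested genes, so the listed genes did not move one way.

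IGF2 (chr11:2129117-2149566, minus strand), the growth factor beside H19, stood at 5.56, 5.17 and 5.14 CPM with PBS and at 6.97, 7.51 and 8.33 CPM with rhTR11B. All rhTR11B libraries were above all PBS libraries. Its mean went from 5.29 ± 0.234 CPM to 7.60 ± 0.687 CPM (SD, n = 3 each), a log2 fold change of 0.52 (SE 0.12, 95% interval 0.27 to 0.78, edgeR adjusted p = 0.0302). The call was lost without PBS replicate 2 (adjusted p = 0.165), PBS replicate 3 (0.156) or rhTR11B replicate 3 (0.0642), and held without each of the other 3 libraries. On the log2(FPKM + 1) scale the difference was 0.25 (limma adjusted p = 0.115), and the direction was the same in all 15 alternatives.

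The order of the rhTR11B libraries differed between the neighbours: H19 was highest in replicate 2 and lowest in replicate 3, while IGF2 was highest in replicate 3 and lowest in replicate 1. The ratio of H19 to IGF2 in FPKM was 0.526, 0.729 and 0.649 with PBS and 1.36, 1.92 and 0.789 with rhTR11B. In FPKM, H19 thus exceeded IGF2 in rhTR11B replicates 1 and 2, and in none of the other 4 libraries. In counts, IGF2 stood above H19 in every library. The order in FPKM therefore depends on the gene lengths used, 2597 bases for H19 and 6612 for IGF2. Of the exon bases of IGF2, 20.9% are shared with the readthrough gene INS-IGF2 on the same strand, which was not analysed here, and 4.77% with IGF2-AS on the opposite strand, which had 0 or 1 count. Reads of such overlapping genes cannot be told apart without knowing how they were counted.

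IGF2R (chr6:159969082-160111504, plus strand), the receptor that removes IGF2, stood at 227, 215.8 and 228 CPM with PBS and at 249.7, 259 and 277 CPM with rhTR11B. The groups did not overlap, and the libraries with rhTR11B had the same order as for IGF2. Its mean rose from 223 ± 6.55 CPM to 262 ± 14.2 CPM, a log2 fold change of 0.23 (SE 0.06, 95% interval 0.10 to 0.35, edgeR adjusted p = 0.0429). The call held in 2 of 6 fits that left out 1 library and was lost without any PBS replicate or without rhTR11B replicate 2, with adjusted p up to 0.207. With scaling by library size alone the adjusted p was 0.0539.

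PEG10 (chr7:94656325-94669695, plus strand), a paternally expressed gene derived from a retrotransposon and known for its role in the placenta, stood at 223, 242 and 229.7 CPM with PBS. With rhTR11B it stood at 224, 201 and 200.1 CPM, so that replicate 1 overlapped the PBS libraries and the other two lay below them. Its log2 fold change was -0.15 (SE 0.06, 95% interval -0.28 to -0.02, edgeR adjusted p = 0.139). It did not pass the test.

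GRB10 (chr7:50590068-50793453, minus strand), an adaptor that binds the insulin and IGF1 receptors and dampens their signal, stood at 39.5, 37.8 and 40.4 CPM with PBS and at 35.9, 36.2 and 37.0 CPM with rhTR11B. All rhTR11B libraries lay below all PBS libraries, but the log2 fold change of -0.11 (SE 0.07, 95% interval -0.25 to 0.03) did not pass the test (edgeR adjusted p = 0.313). PHLDA2 (chr11:2928273-2929420, minus strand), a maternally expressed gene that limits placental growth, stood at 10.5, 12.4 and 11.2 CPM with PBS and at 10.2, 9.46 and 9.91 CPM with rhTR11B. Here too the groups did not overlap, with a log2 fold change of -0.21 (SE 0.10, 95% interval -0.42 to 0.00, edgeR adjusted p = 0.214). PEG10, GRB10 and PHLDA2 were called in none of the 15 alternatives and were lower with rhTR11B in all of them.

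The remaining 3 listed genes of the table had almost no reads. CDKN1C, a cyclin-dependent kinase inhibitor on chromosome 11, had counts of 1, 0 and 1 with PBS and 0, 0 and 1 with rhTR11B. MEST had 1 count, in PBS replicate 2. PLAGL1, a zinc finger transcription factor, had counts of 1, 1 and 0 with PBS and 1, 0 and 0 with rhTR11B. All are under the limit of 3 counts in every library, so a difference between the groups was not detectable at this depth.

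On the short arm of chromosome 11 the tested genes around H19 and IGF2 did not share their size of change. Neighbours were found by RefSeq position, so tested genes without a RefSeq row under their symbol, among them SLC22A18 beside CDKN1C, are left out of the counts of neighbours. Of 7 positioned non-member genes tested within 500 kb of H19 or IGF2, CTSD rose and none fell. That is 14.3% called, from 1 gene, against 3.60% over all tested genes. CTSD, a lysosomal protease gene 231 kb from H19, stood at 302, 257 and 282 CPM with PBS and at 322, 329 and 390.5 CPM with rhTR11B, a rise without overlap (log2 fold change 0.31, SE 0.08, edgeR adjusted p = 0.0355). Its call was lost without PBS replicate 2 (adjusted p = 0.205) or PBS replicate 3 (0.176). CD81, a tetraspanin gene, had a log2 fold change of 0.24 (adjusted p = 0.0589), and MRPL23, a mitochondrial ribosomal protein gene whose RefSeq span includes H19, had -0.22 (adjusted p = 0.121), and neither passed. Around KCNQ1OT1, CDKN1C and PHLDA2, edgeR called 0 of 6 tested genes with a position, with 2 at an unadjusted p under 0.05, and the DESeq2 Wald test called 1, CD81. Over all 13567 tested genes, edgeR had 3279 at an unadjusted p under 0.05 and the Wald test called 1085.

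**Figure D2:**
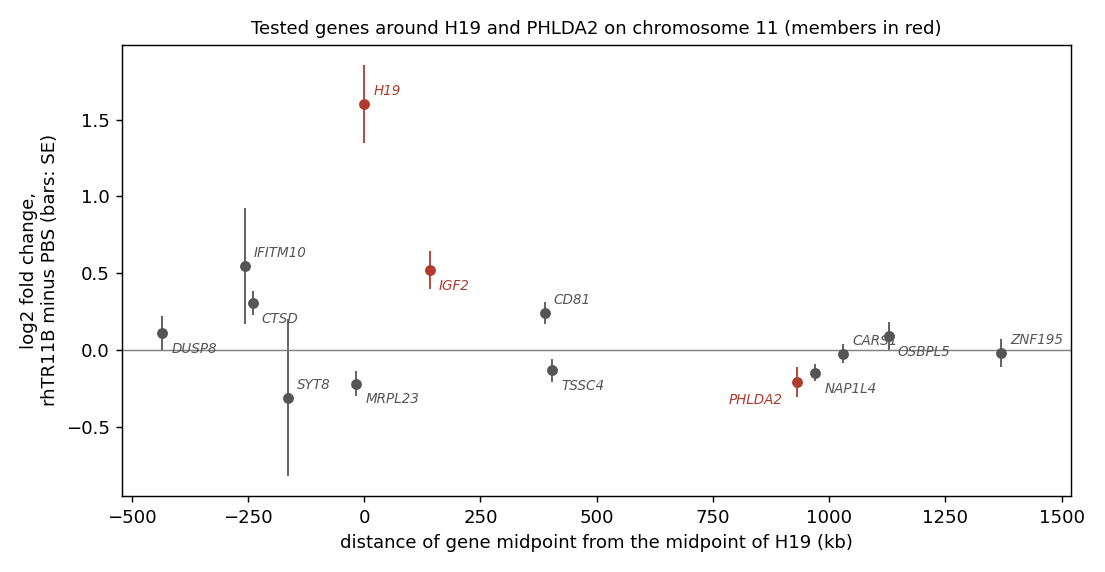
Log2 fold change (rhTR11B minus PBS, bars are standard errors) of tested genes against their distance in kb from H19, with the listed imprinted genes in red. H19 lies at 1.60, IGF2 at 0.52 and PHLDA2 at -0.21. On the side away from IGF2, H19 is followed by MRPL23 at -0.22, SYT8 at -0.31 (SE 0.51) and CTSD at 0.31.

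Across all domains, 36 tested non-member genes had a RefSeq position within 500 kb of a listed gene, of which 2 rose and 2 fell. That is 11.1% called, against 3.60% over all tested genes, with a median log2 fold change of -0.02. Without PBS replicate 2 or PBS replicate 3 edgeR called 0 of the 36, with 11 and 7 at an unadjusted p under 0.05. Over all tested genes, these fits called 23 of 13765 and 12 of 13748, with 2258 and 2424 at an unadjusted p under 0.05. The other riser was SGCE, an imprinted gene that shares a bidirectional start region with PEG10. SGCE stood at 80.4, 73.5 and 82.8 CPM with PBS and at 91.5, 89.8 and 105 CPM after rhTR11B, without overlap (its log2 fold change was 0.28, SE 0.07, edgeR adjusted p = 0.0393). The ratio of SGCE to PEG10 in CPM was 0.361, 0.304 and 0.360 with PBS and 0.409, 0.448 and 0.526 with rhTR11B. In an exact two-sided permutation test this gave p = 0.1, the smallest p that 3 libraries against 3 allow. This ratio was chosen after the values were seen, and is 1 of 3 such ratios, with a Benjamini-Hochberg adjusted p of 0.1. The 2 genes share 219 exon bases on opposite strands, 3.27% of the exon bases of PEG10, and counting without strand would not separate reads from these.

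Near IGF2R, MRPL18, a mitochondrial ribosomal protein gene, and TCP1, a subunit of the cytosolic chaperonin, fell while IGF2R rose. MRPL18 went from 68.8 ± 3.12 CPM to 56.0 ± 5.90 CPM (log2 fold change -0.30, SE 0.07, edgeR adjusted p = 0.0358), with no overlap. TCP1 stood at 384, 421 and 405 CPM with PBS and at 359.6, 343 and 325 CPM with rhTR11B, again with no overlap (-0.24, SE 0.06, edgeR adjusted p = 0.0438). Each of SGCE, MRPL18 and TCP1 was called in 2 of 6 fits that left out 1 library. All 3 lost their calls without any PBS replicate, SGCE also without rhTR11B replicate 3, and MRPL18 and TCP1 without rhTR11B replicate 2, with adjusted p up to 0.200, 0.182 and 0.217.

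A wider list of 69 further genes described as imprinted in some human tissue had 38 genes in the table and 26 tested. SGCE was the only one to rise and none fell, so that 3.85% were called, against 3.60% over all tested genes. Their median log2 fold change was 0.05, and 15 had a positive and 11 a negative value. Of the 14 tested genes listed with an active paternal copy, 1 rose and none fell (median 0.07). Of the 12 listed with an active maternal copy, edgeR and the Wald test of DESeq2 each called 0, with 2 at an unadjusted p under 0.05 in both (median -0.03). Over all 13567 tested genes, the Wald test called 1085, and 3279 (edgeR) and 3105 (Wald) had an unadjusted p under 0.05. The active copy in these cells was not measured.

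Named by smallest p, the next paternal genes were L3MBTL1, a chromatin-binding protein gene, with a log2 fold change of 0.76 (edgeR adjusted p = 0.132), and SGK2, a kinase gene, with 0.39 (adjusted p = 0.120). The mean level of L3MBTL1 was 0.684 ± 0.184 CPM in PBS libraries and 1.16 ± 0.114 CPM in rhTR11B libraries, without overlap. Among maternal genes the smallest p values were those of SLC22A18, a membrane transporter gene beside CDKN1C, with 0.33 (adjusted p = 0.166), and UBE3A, a ubiquitin ligase gene, with -0.14 (adjusted p = 0.188). None of these 4 passed the test. H19, at 1.60, lay above the highest value of the wider list, 0.76. It was chosen by its rise in this comparison, so its place above the list is a description only.

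**Figure D3:**
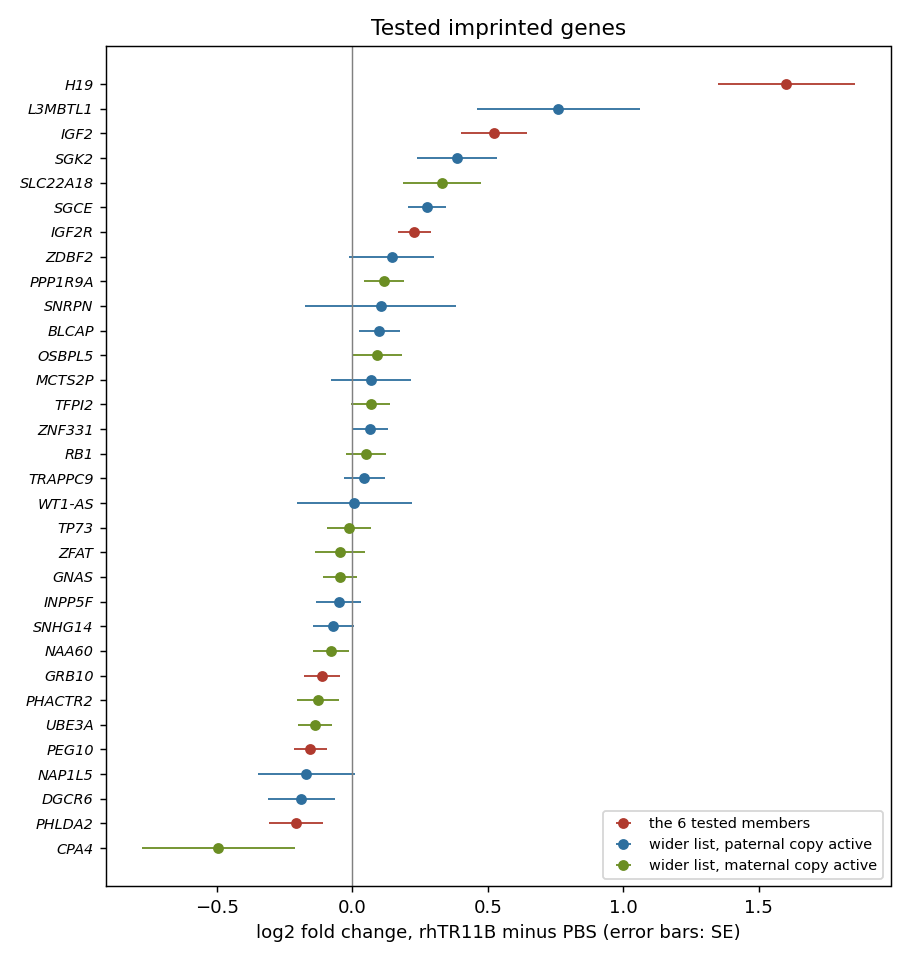
Log2 fold change (rhTR11B minus PBS, bars are standard errors) of the tested imprinted genes, listed genes and wider list. H19, chosen by its rise in this comparison, lies at 1.60, the wider list runs from -0.49 to 0.76, and most genes lie near 0.

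Genes that set or keep imprints were followed as a list of 24 names, of which 20 were tested. The list holds DNA methyltransferases, zinc finger and Polycomb proteins, CTCF and cohesin. Both edgeR and the DESeq2 Wald test called 0 of them, with 2 and 3 at an unadjusted p under 0.05, and the median log2 fold change was -0.03. Over all 13567 tested genes, these tests called 488 and 1085, with 3279 and 3105 at an unadjusted p under 0.05. CTCF, whose binding separates the H19 and IGF2 copies, stood at 107, 109.8 and 108 CPM with PBS and at 102, 100.4 and 93.3 CPM with rhTR11B. Its groups did not overlap, but the log2 fold change of -0.14 (SE 0.06) did not pass the test (edgeR adjusted p = 0.158). DNMT1, the maintenance DNA methyltransferase, had a log2 fold change of -0.04 with a 95% interval of -0.15 to 0.08.

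Partners of IGF2 were followed as a list of 26 genes of the insulin-like growth factor axis and RNA-binding partners of H19 and IGF2. Of these 20 were in the table and 16 were tested, and IGFBP6 and IGF1R rose while none fell. That is 12.5% called, against 3.60% over all tested genes, with a median log2 fold change of 0.05. With a mean of at least 1 CPM as the filter, edgeR called 0 of the 16, with 6 at an unadjusted p under 0.05. Over all 12062 genes kept by that filter, 336 were called and 3121 had an unadjusted p under 0.05. IGF1R, the receptor through which IGF2 signals, stood at 22.2, 21.0 and 22.0 CPM with PBS and at 25.4, 25.4 and 31.0 CPM with rhTR11B. Every rhTR11B library was above every PBS library (log2 fold change 0.33, SE 0.09, edgeR adjusted p = 0.0436). IGFBP6, a secreted binding protein with a preference for IGF2, stood at 4.95, 3.35 and 5.04 CPM with PBS and at 5.82, 6.81 and 7.97 CPM with rhTR11B (0.63, SE 0.16, adjusted p = 0.0429). Both were highest in rhTR11B replicate 3, as IGF2 and IGF2R were, and that library also had the largest mitochondrial share of counts, 10.4%. The part of that share in these values was not tested.

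Other members of the axis did not pass the test. The insulin receptor gene INSR had a log2 fold change of 0.24 (edgeR adjusted p = 0.101) and the binding protein gene IGFBP4 0.27 (adjusted p = 0.0713). The RNA-binding proteins IGF2BP1, IGF2BP2 and IGF2BP3, which bind the IGF2 transcript, had 0.02, -0.14 and 0.08. IGF1R held its call in 2 of 6 fits that left out 1 library and lost it without any PBS replicate or rhTR11B replicate 3 (adjusted p up to 0.189). IGFBP6 held its call in 1 of 6, the fit without rhTR11B replicate 1 (adjusted p up to 0.201 in the others).

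**Figure D4:**
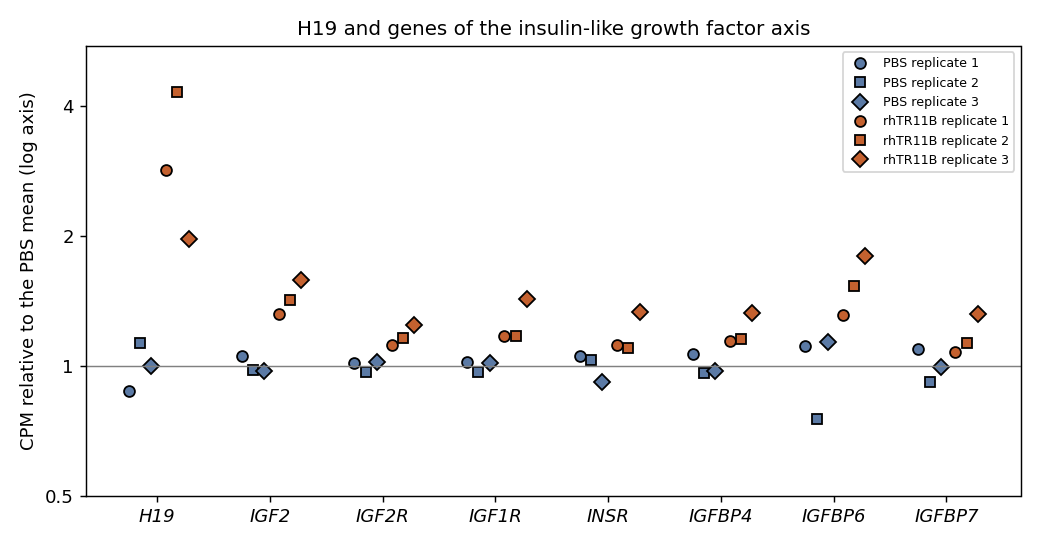
CPM of H19, IGF2, 3 receptors (IGF2R, IGF1R, INSR) and binding proteins in each library, relative to the mean of the 3 PBS libraries, on a log axis with a line at that mean; each point is 1 library. IGF2 stands at 1.32, 1.42 and 1.57 times the mean in rhTR11B replicates 1, 2 and 3, while H19 stands at 2.84, 4.30 and 1.96 times and is lowest in replicate 3.

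Over the 6 libraries, the genes whose log2 CPM was most like that of H19 were SAMD4A (Pearson r = 0.989), INTS12 (0.987), ABTB2 (0.986), DOP1B (0.980) and LINC02246 (0.976). They were taken from 12061 genes with a mean of at least 1 CPM, 86 of which had r above 0.9. The points share the 2 groups and their libraries, so these values are a description. The changes of the 5 genes were smaller than that of H19, with log2 fold changes of 0.07, 0.09, 0.24, 0.24 and 0.51 in the order given. Among the listed genes, IGF2 had r = 0.79 (rank 382) and IGF2R 0.72 (rank 693). PEG10, PHLDA2 and GRB10 had r = -0.67, -0.73 and -0.88, and GRB10 stood at rank 11925 of 12061.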

How the data were processed

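RNA sequencing libraries of cells labelled A549 were grouped by the treatment in the labels (PBS or rhTR11B, 3 each). Per the labels' protocols, TRIzol was used for RNA and a VAHTS Universal V6 kit for library preparation. The deposited tables hold whole-number read counts per gene symbol and FPKM values, made by the authors on GRCh38. Per the submitters' processing notes the tools were HISAT, HTSeq, fastp, DESeq2 and R 3.2.0. Their roles, the annotation and whether counting used strand were not stated there or in the labels. The deposited FPKM values equal counts over gene length and library total (100% of values agree to a relative 0.001).

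From the counts, edgeR 4.0.16 (R 4.3.3) gave TMM-scaled CPM and the quasi-likelihood test with group as the only term, on 13567 genes kept by filterByExpr (minimum count 10), with Benjamini-Hochberg adjustment over all of them. The common biological coefficient of variation was 0.0656. Intervals and limits for counts cover counting error only. The step was tested on simulated data with known changes, all of them larger than that of IGF2R. How well changes as small as that of IGF2R are recovered was not tested. Alternatives were DESeq2 1.42.0 (size factors, Wald test), library size alone, other low-count filters, the replicate number as a block, limma 3.58.1 on log2(FPKM + 1) and log2(FPKM + 0.1), and leaving out each library. Of 19876 symbols, 18832 had a RefSeq row (GRCh38.p14), as did all 10 listed genes; overlaps are from GENCODE 29 exons.

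The listed genes and gene lists were chosen with earlier results of these data known. Named genes are the listed genes, called genes of the other lists and up to 4 each with the smallest p, called neighbours within 500 kb and up to 2 per domain by smallest p, and the 5 genes most like H19. Not every gene the rule takes is printed.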

Additional observations from a re-analysis of the deposited data

How the results depend on the processing

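Counts of called genes depended on the setting more than the fold changes of the listed genes did. With 396 genes higher and 92 lower by edgeR, the DESeq2 Wald test gave 748 and 337, no low-count filter 940 and 483, and the replicate number as a block 774 and 252. A mean of at least 1 CPM gave 60 lower. Leaving out 1 library gave 9 to 903 higher and 3 to 427 lower, fewest without PBS replicate 3. On log2(FPKM + 1) limma called 4 higher and 0 lower, on log2(FPKM + 0.1) 1 and 0, and with no filter 0 and 0, though 3045, 3057 and 3145 genes had an unadjusted p under 0.05. The calls among listed genes other than H19 (2), wider imprinted genes (1) and neighbours (4) were each 0 in all 3 FPKM fits. There 4, 4 and 4, then 4, 4 and 5, then 13, 13 and 15 genes had an unadjusted p under 0.05. With library size alone 1 of 5 listed genes was called, against 417 of 13567 over all tested genes. Leaving out 1 library gave 0 to 2, 0 to 1 and 0 to 6 calls. Without PBS replicate 2 or 3 all of these were 0, with 2 or 3 listed, 2 or 5 wider and 11 or 7 neighbouring genes at an unadjusted p under 0.05; the wider list also had 0 without PBS replicate 1 or rhTR11B replicate 3 (1 and 4 genes). Within 100 kb 1 of 10 tested neighbours was called and within 1000 kb 6 of 62, against 3.60% over all tested genes.

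The replicate numbers did not pair the libraries: same-numbered libraries deviated with correlations of -0.105, 0.0506 and -0.00666. With the replicate block, the same number of listed genes was called (2). Of the listed genes, every tested one kept its direction in all 15 alternatives. On log2(FPKM + 1), a scale that understates low genes, H19 had 0.72 in place of 1.60 and IGF2 0.25 in place of 0.52. The median of the wider list lay between -0.02, without rhTR11B replicate 3, and 0.07. The IGF axis had 0 calls with a mean of at least 1 CPM, with 6 genes at an unadjusted p under 0.05. H19 rests on 43 to 211 counts a library, and CDKN1C, MEST and PLAGL1 are below what this depth can compare. The causes of these differences were not tested.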
